A study of Mus musculus with 2 samples.

Results

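The early B cell factors Ebf1, Ebf2 and Ebf3, the zinc finger proteins Zfp423, Zfp521 and Zfp467, the cofactors Nrip1 and Tle3 and the Wnt effector Tcf7l2 were followed through white and brown adipocyte precursor cells in culture. These 9 genes, of 32285 listed, were chosen by name as factors of adipocyte commitment. Stromal vascular cells of the subcutaneous white (WAT) and interscapular brown (BAT) depots were taken from pooled male and female C57/BL6J pups aged P0 by the labels (the day of birth, while the study's methods name another day), with no genetic change or treatment stated, and were grown to confluency in 4 days. Collagenase digestion lasted 35 minutes for WAT and 50 minutes for BAT, so depot and digestion time cannot be told apart. Each depot gave 1 10x Genomics 3′ library, so no value has a replicate check and no comparison has a p-value. All levels are UMIs (unique molecular identifiers, counted transcripts) summed over cells and given per 1000000 UMIs (CPM), with a 95% interval that covers counting error only.

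Adipocyte precursors become committed when they raise Pparg, the nuclear receptor that drives fat cell differentiation. Ebf proteins bind DNA beside Pparg at fat cell genes, and Zfp423 and Zfp521 are large zinc finger proteins that bind Ebf proteins and are known to favour and to oppose adipogenesis, respectively. Nrip1 and Tle3 carry repressor or activator complexes to nuclear receptors, and Tcf7l2 turns Wnt signals, which hold precursors back from differentiation, into transcription.

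The libraries held 5261 captured white and 7009 captured brown cells with medians of 26239 and 26411 UMIs, and 9 barcodes occurred in both. After filtering, and without glial, myeloid and myogenic cells, 4331 WAT and 5958 BAT precursors remained, with medians of 26949 and 26413 UMIs. The 5 precursor markers (Pdgfra, Pdgfrb, Dlk1, Dcn and Col1a1) summed to 6172 CPM in WAT and 5703 CPM in BAT precursors. The 5 glial markers summed to 21.4 and 17.9 CPM there, and the 5 myeloid markers to 7.90 and 9.67 CPM. The study's own cluster names were used, which its source data give for 46.2% of the WAT and 33.6% of the BAT precursors. They comprised wAPC 1 to wAPC 4, committed precursors (wCAPs, 674 cells), fibro-adipogenic progenitor-like cells (wFAPLs, 256 cells) and 15 differentiating wFAPLs in WAT, and bAPC 1 to bAPC 5, bCAPs (296 cells) and bFAPLs (279 cells) in BAT. Clusters and levels come from one set of counts, so every difference between clusters is a description.

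On GRCm38 the genes spanned 18129 bases (Zfp467) to 390775 bases (Ebf1), of which 1.88% (Zfp423) to 25.3% (Tle3) was exon. Ebf1 lies at chr11:44617317-45008091 on the plus strand, Ebf2 at chr14:67233292-67430918 on the plus strand and Ebf3 at chr7:137193673-137314445 on the minus strand. Zfp423 lies at chr8:87661810-87959595 and Nrip1 at chr16:76287400-76373827, both on the minus strand, and Tcf7l2 at chr19:55741820-55933654 on the plus strand, where it overlaps the counted gene Ppnr on the same strand. Zfp467 and Tle3 lie at chr6:48427697-48445825 (minus) and chr9:61372366-61418497 (plus). Since the reads were 3′ tags and intronic reads may also have been counted, each gene is compared with itself and no ranking of levels between genes is drawn; shares of a gene family are compared between groups of cells only.

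Members of the Ebf family bind the palindrome CCCNNGGG, which reads the same on both strands. These letters occurred in the 250 bases before the start site in 3 of the 11 RefSeq promoters of 7 members (Ebf3, Zfp423 and Zfp467), against 11.8% of 32851 mouse promoters. A match is a description of the letters and not a binding site. The windows of Ebf3 and of an internal Zfp423 start are shown because both genes reached their highest brown level in bCAPs, where Ebf2 did too (RefSeq, GRCm38.p6, minus strand for both, at chr7:137314446-137314695 and chr8:87804440-87804689, 5′ to 3′, palindrome in capitals). Both matches lay close to the start site, with first bases at -21 and -28. The Ebf1, Nrip1 and Tcf7l2 windows held 0 matches, although these genes too had their highest brown level in bCAPs. Zfp467, with a match, was highest in bAPC 5, and the other Zfp423 window held 0 matches. The Ebf3 window was 80% G and C and the Zfp423 window shown 64.8%. The part of base composition in the matches was not tested.
Ebf3: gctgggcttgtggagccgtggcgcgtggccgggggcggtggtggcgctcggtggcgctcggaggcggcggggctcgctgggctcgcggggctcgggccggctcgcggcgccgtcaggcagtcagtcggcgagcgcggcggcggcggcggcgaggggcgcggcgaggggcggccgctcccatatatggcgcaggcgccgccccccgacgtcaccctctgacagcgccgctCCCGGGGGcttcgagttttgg
Zfp423: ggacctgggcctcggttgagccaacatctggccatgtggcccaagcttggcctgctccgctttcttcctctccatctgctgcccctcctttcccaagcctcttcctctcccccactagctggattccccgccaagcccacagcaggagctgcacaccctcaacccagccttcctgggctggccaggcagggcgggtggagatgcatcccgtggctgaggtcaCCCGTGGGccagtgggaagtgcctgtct

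The question of which commitment factors separate the depots was asked first over all precursors. Ebf2 and Zfp423 were higher in BAT, and Nrip1, Zfp521 and, by less, Ebf1 were higher in WAT. Ebf3, Tle3 and Tcf7l2 lay within a log2 difference of 0.16 of equal. A gene was called when it differed by more than 2-fold with at least 10 CPM in one of the groups. That call fell on 1.84% of 9037 tested genes and on 0 of 8 tested members, Zfp467 being under the minimum. Intervals above 0 (higher in WAT) were found for 5 of 8 members against 48% of genes, and intervals below 0 for 2 of 8 against 33.4%, so at this depth a non-zero difference by itself was common. The members' median log2 ratio was 0.15, beside 0.04 over all tested genes.

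Ebf1, which acts upstream of and together with Pparg, stood at 1065 CPM (1059 to 1071) in WAT and 881 CPM (877 to 886) in BAT. Ebf2, a factor known to mark and help specify brown precursors, stood at 83.6 CPM (82.0 to 85.3) in WAT and 167 CPM (165 to 169) in BAT. Its log2 ratio of WAT over BAT was -0.996 (-1.03 to -0.96), a fold of 1.99 that fell just short of the 2-fold limit. Of all tested genes, 0.730% had a lower ratio, which places Ebf2 among the genes most tilted towards BAT. Ebf3, the third family member with overlapping DNA binding, stood at 76.5 CPM (74.9 to 78.0) and 77.4 CPM (76.0 to 78.7), a log2 ratio of -0.02 (-0.06 to 0.02) whose interval holds 0 and whose sign changed with the cells used. Within the family, Ebf2 therefore took 6.82% (6.69 to 6.95) of all Ebf1 to Ebf4 UMIs in WAT and 14.8% (14.6 to 15.0) in BAT, while Ebf1 took 86.8% (86.7 to 87.0) and 78.3% (78.1 to 78.4). Ebf4 held 0.0923% and 0.0712%.

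Zfp423, the commitment factor that keeps Pparg on and restrains Ebf2-driven brown genes, stood at 27.4 CPM (26.5 to 28.3) in WAT and 44.2 CPM (43.2 to 45.2) in BAT, a log2 ratio of -0.69 (-0.75 to -0.63). Its relative Zfp521, an inhibitor of adipogenesis that binds Ebf1, ran the opposite way, at 286 CPM (283 to 289) and 183 CPM (181 to 185), a log2 ratio of 0.64 (0.62 to 0.67). The pair thus shifted against each other. Zfp423 made up 8.73% (8.45 to 9.02) of the summed Zfp423 and Zfp521 UMIs in WAT and 19.4% (19.1 to 19.8) in BAT. Zfp467, known for turning marrow stromal cells towards fat, stood under the 10 CPM minimum of the call. It had 9.23 CPM (8.70 to 9.78) in WAT and 8.69 CPM (8.25 to 9.14) in BAT, on 1134 and 1473 UMIs. Its log2 ratio of 0.09 (-0.03 to 0.20) did not separate the depots.

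Nrip1 (RIP140), a corepressor of nuclear receptors that holds down oxidative and thermogenic genes in white fat, stood at 165 CPM (162 to 167) in WAT and 92.4 CPM (91.0 to 93.9) in BAT. Its log2 ratio of 0.83 (0.80 to 0.86) was the largest towards WAT among the members, and 98.5% of tested genes had a lower one. Tle3, a Groucho-family cofactor that works with Pparg and opposes Prdm16, stood at 26.5 CPM (25.6 to 27.4) and 23.7 CPM (23.0 to 24.5), a log2 ratio of 0.16 (0.09 to 0.22). Tcf7l2, the DNA-binding partner of beta-catenin, stood at 152 CPM (150.2 to 155) and 139 CPM (137 to 141), a log2 ratio of 0.14 (0.11 to 0.16). Neither cofactor nor Wnt effector moved as far between depots as Nrip1. Tcf7l2 made up 51.4% (50.9 to 51.9) of the summed Tcf7, Tcf7l1, Tcf7l2 and Lef1 UMIs in WAT and 51.2% (50.7 to 51.6) in BAT, intervals that overlap.

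**Figure D1:**
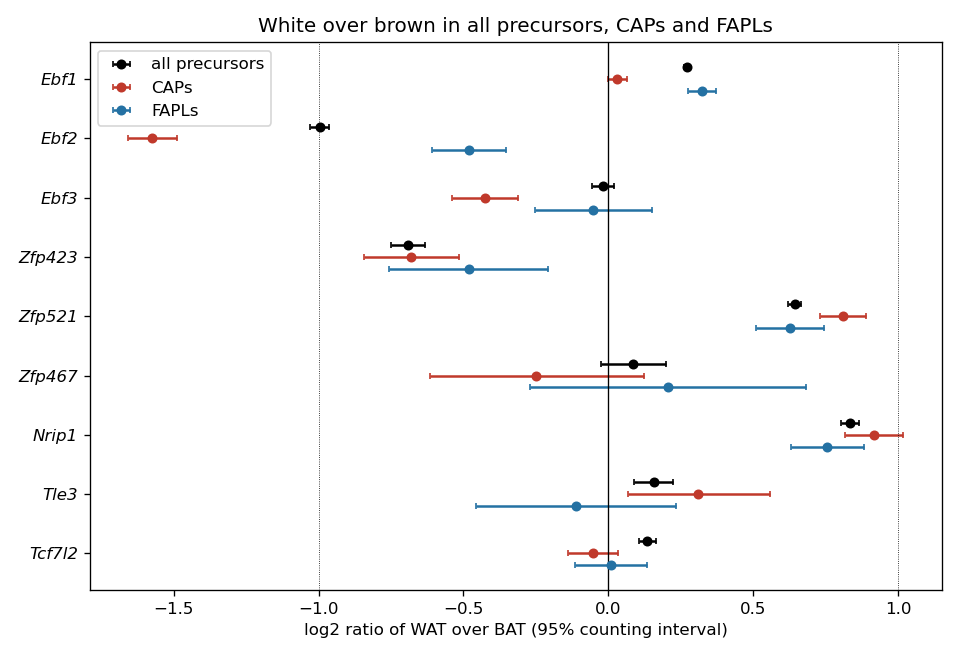
Log2 ratio of WAT over BAT (horizontal axis) for each of the 9 genes, in all precursors (black), CAPs (red) and FAPLs (blue); points are ratios of summed UMIs, bars 95% counting intervals, and dotted lines mark 2-fold. Ebf2 and Zfp423 lie left of 0 and Nrip1 and Zfp521 right of 0 in the 3 comparisons, and Ebf2 passes the 2-fold line in CAPs.

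The relatives and partners of the 9 genes were followed as fixed lists between the depots. Of 5 Ebf and zinc finger relatives 4 were tested, of 5 Tle genes 4, of 5 Tcf/Lef and beta-catenin genes 2, of 10 nuclear receptor cofactors 10, of 5 BMP SMAD and Ehmt1 genes 4, and of 20 core adipogenic factors 14; in these lists 0 genes passed 2-fold. Their median log2 ratios of WAT over BAT were 0.13, 0.08, 0.06, 0.14, 0.21 and 0.27. Pparg itself had a log2 ratio of -0.09 (-0.13 to -0.04), so the depot tilt of Ebf2, Zfp423 and Nrip1 was not matched by a like tilt in Pparg. Of the markers, 3 mural genes passed 2-fold between the depots, Abcc9 (1.08) and Myh11 (1.40) towards WAT and Rgs5 (-1.35) towards BAT, and their part in the member ratios was not tested.

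Some brown precursors carried a UMI of Hoxc9, a positional gene of the white depot here, which was found in 15.9% of them and in 67.3% of white precursors. In the 948 brown cells with a Hoxc9 UMI, Ebf2 stood at 162 CPM, against 168 CPM in the 5010 without one and 83.6 CPM in WAT. Nrip1 stood at 92.9 and 92.3 CPM, against 165 CPM in WAT. For Ebf2 and Nrip1 the brown cells with a Hoxc9 UMI thus lay near the other brown cells. Tle3 lay nearer the white level, at 27.2 CPM with a Hoxc9 UMI, 23.0 CPM without one and 26.5 CPM in WAT. Ebf1 stood at 921, 873 and 1065 CPM. Zfp423 lay further from the white level, at 48.2, 43.4 and 27.4 CPM, and Ebf3 stood at 71.5, 78.6 and 76.5 CPM. The cells with a Hoxc9 UMI were deeper, with a median of 28823 UMIs against 26003. They were also uneven over the clusters, at 25.7% of bAPC 3 and 6.81% of bFAPLs. The part of depth, cluster and phase in these levels was not tested. Without the brown cells with a Hoxc9 UMI and the 1 white cell with a Zic1 UMI, the Ebf2 log2 ratio of WAT over BAT was -1.004 and passed 2-fold.

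Cells called in different phases of the cycle, from the S and G2/M gene lists, differed in several members. Ebf2 was lower in S than in G1 in both depots, with log2 ratios of -0.43 (-0.51 to -0.35) in WAT and -0.41 (-0.46 to -0.36) in BAT, and Nrip1 was lower in S by a similar size, at -0.56 (-0.62 to -0.50) and -0.34 (-0.40 to -0.27). Ebf3 and Tle3 were instead higher in G2/M than in G1. For Ebf3 the log2 ratios were 0.27 (0.20 to 0.34) in WAT and 0.42 (0.36 to 0.47) in BAT, and for Tle3 0.29 (0.17 to 0.40) and 0.35 (0.25 to 0.46). The depot differences were present inside each phase. In G1, S and G2/M cells the log2 ratio of WAT over BAT was -0.95, -0.97 and -1.11 for Ebf2, -0.55, -0.80 and -0.99 for Zfp423, and 0.88, 0.66 and 0.84 for Nrip1. Ebf2 and Zfp423 each had its widest gap towards BAT in G2/M.

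The share of cells with at least 1 UMI was compared after each cell was thinned to 10000 UMIs, beside the glial cells (47 WAT, 68 BAT), which do not form fat. Ebf1 was found in 99.3% of WAT and 97.8% of BAT precursors, against 6.38% and 14.7% of glial cells. Ebf2 was found in 40.4% and 61.1% of precursors (60.4% and 78.5% unthinned), against 2.13% and 2.94%. The 3 Ebf genes and Zfp521 were thus far above the glial share. Zfp423 was found in 20.1% and 31.2% of precursors, against 6.38% and 2.94%, and Tcf7l2 in 70.9% and 68.6%, against 29.8% and 36.8%. Nrip1 was found in 69.5% and 53.1% of precursors and in 57.4% and 57.4% of glial cells, so its brown precursor share was not above the glial one, while myeloid cells had 20.7% and 38.5%. Tle3 was found in 66.0% of white glial cells (50.7 to 79.1), above the 22.3% of white precursors, and in 27.9% of brown glial cells (17.7 to 40.1), an interval that holds the 20.6% of brown precursors. The Zfp467 share of 8.80% and 8.44% did not exceed the glial 14.9% and 14.7%. Glial cells held 16.5 and 15.2 CPM of Zfp467, so their share does not mark absence of this gene. The Zfp467 share of myogenic cells was 3.03%.

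Myeloid cells of the brown culture (78 cells) held 159 CPM (142 to 177) of Ebf1 and those of the white culture (29 cells) 17.7 CPM (9.93 to 29.3). The brown value was 18.0% of the precursor level, beside 20.2% for Ebf2, 17.3% for Pdgfra and 15.4% for Col1a1. Ebf1 and Ebf2 thus stood at about the same fraction of the precursor level as the precursor markers in these brown myeloid cells. No doublet caller was run, and the part of mixed droplets was not tested.

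**Figure D2:**
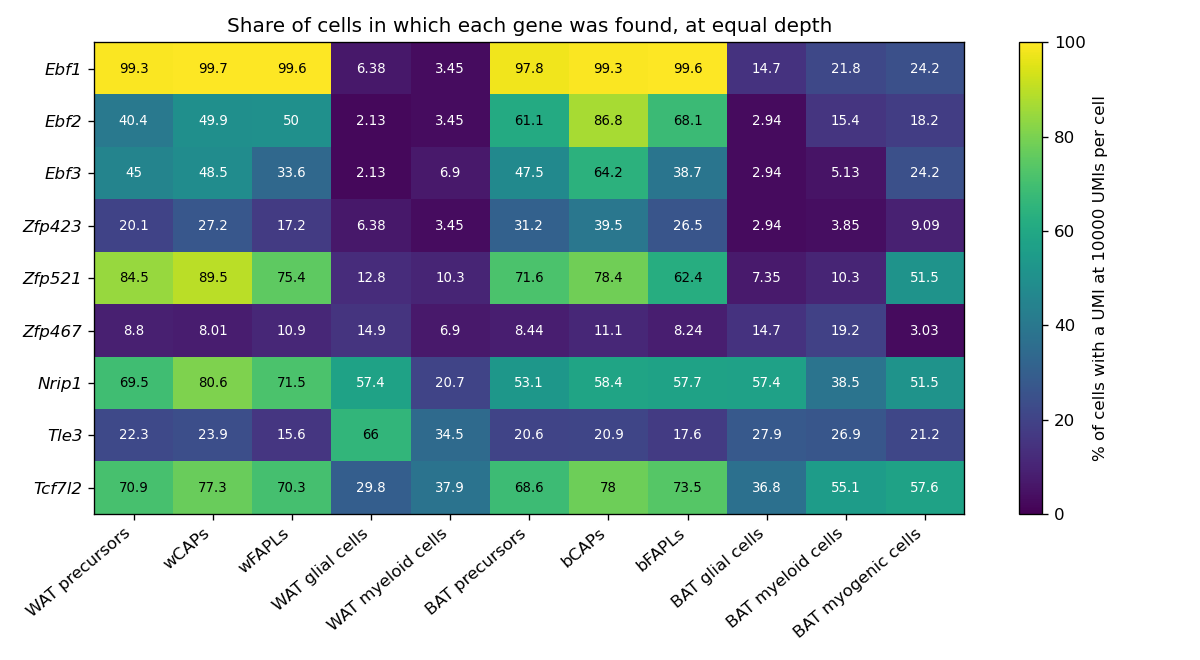
Percent of cells with at least 1 UMI of each gene (rows) in groups of cells (columns) after thinning to 10000 UMIs per cell; colour and printed value give the percent. The Ebf genes and Zfp521 separate precursors from glial and myeloid cells, Tle3 is highest in white glial cells, and Ebf2 goes from 49.9% in wCAPs to 86.8% in bCAPs.

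Across the clusters the 9 genes did not move as a block. The 15 differentiating wFAPLs are left out of the orders given here. Ebf2 varied most by fold, from 47.7 CPM in wAPC 1 to 179 CPM in wAPC 4 in WAT and from 86.2 CPM in bAPC 2 to 321 CPM in bCAPs in BAT, a span of 3.74-fold and 3.72-fold among clusters of 50 or more cells. Zfp423 had its lowest and highest white levels in the same clusters, at 13.6 CPM (11.8 to 15.7) in wAPC 1 and 47.7 CPM (37.9 to 59.3) in wAPC 4, where the interval overlaps that of wCAPs, and also peaked in bCAPs, at 62.7 CPM (57.4 to 68.3). Ebf2 and Zfp423 thus had the same lowest and highest white clusters and the same highest brown cluster, though for Zfp423 the wAPC 1 interval overlapped that of wAPC 2 and the bCAPs interval that of bAPC 3. In contrast, wAPC 4 (62 cells) was the lowest white cluster for Ebf3, at 32.4 CPM (24.4 to 42.2), for Zfp521, at 167 CPM (148 to 188), and for Tcf7l2, at 103 CPM (87.9 to 119).

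Ebf3 and Zfp521 were highest in wAPC 2 among the white clusters, at 102 and 423 CPM, and the Ebf3 intervals of wAPC 2, wAPC 3 and wCAPs overlapped. Ebf1 and Nrip1 peaked in wCAPs, at 1245 CPM (1229.7 to 1261) and 229 CPM (222 to 235), and both were lowest in wAPC 1, at 826 and 95.3 CPM. Tcf7l2 peaked in wCAPs as well, at 185 CPM (179 to 191). Tle3 kept within 18.5 (wFAPLs) to 32.7 CPM (wAPC 2), and Zfp467 within 6.89 to 11.6 CPM.

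In BAT, bAPC 2 (415 cells) was the lowest cluster for 7 of the 9 genes, though the Ebf3, Nrip1, Tle3 and Zfp467 intervals overlapped those of other clusters. The exceptions were Ebf1, lowest in bAPC 5 at 553 CPM (527 to 579) beside 558 CPM (545 to 571) in bAPC 2, and Zfp423, lowest in bAPC 4 at 26.8 CPM (22.3 to 32.0) beside 29.4 CPM (26.4 to 32.6) in bAPC 2, pairs whose intervals overlap. The 6 genes Ebf1, Ebf2, Ebf3, Zfp423, Nrip1 and Tcf7l2 had their highest brown level in bCAPs, where the interval overlapped that of the next cluster for Ebf3 (bAPC 5), Zfp423 (bAPC 3) and Nrip1 (bFAPLs). bAPC 5 (115 cells) combined the lowest Ebf1 with the second highest Ebf2, at 213 CPM (198 to 229.9), and the second highest Ebf3, at 102 CPM (90.9 to 113). Ebf1 and Ebf2 were therefore uncoupled in that cluster, where Ebf2 took 24.6% (23.0 to 26.2) of the Ebf UMIs, against 19.3% (18.7 to 20.0) in bCAPs. Zfp521 and Tle3 peaked in bAPC 1, at 258 and 28.1 CPM.

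The 15 differentiating wFAPLs held few UMIs of any member. Ebf2 stood at 140.5 CPM (109 to 178) and Zfp467 at 29.4 CPM (16.0 to 49.3), against 11.2 CPM (8.85 to 13.9) in wFAPLs. The Zfp467 intervals were apart, but the higher value rests on 14 UMIs. The 5 mural markers summed to 27256 CPM in these cells, against 4377 CPM in wFAPLs, and the part of this in the member levels was not tested.

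**Figure D3:**
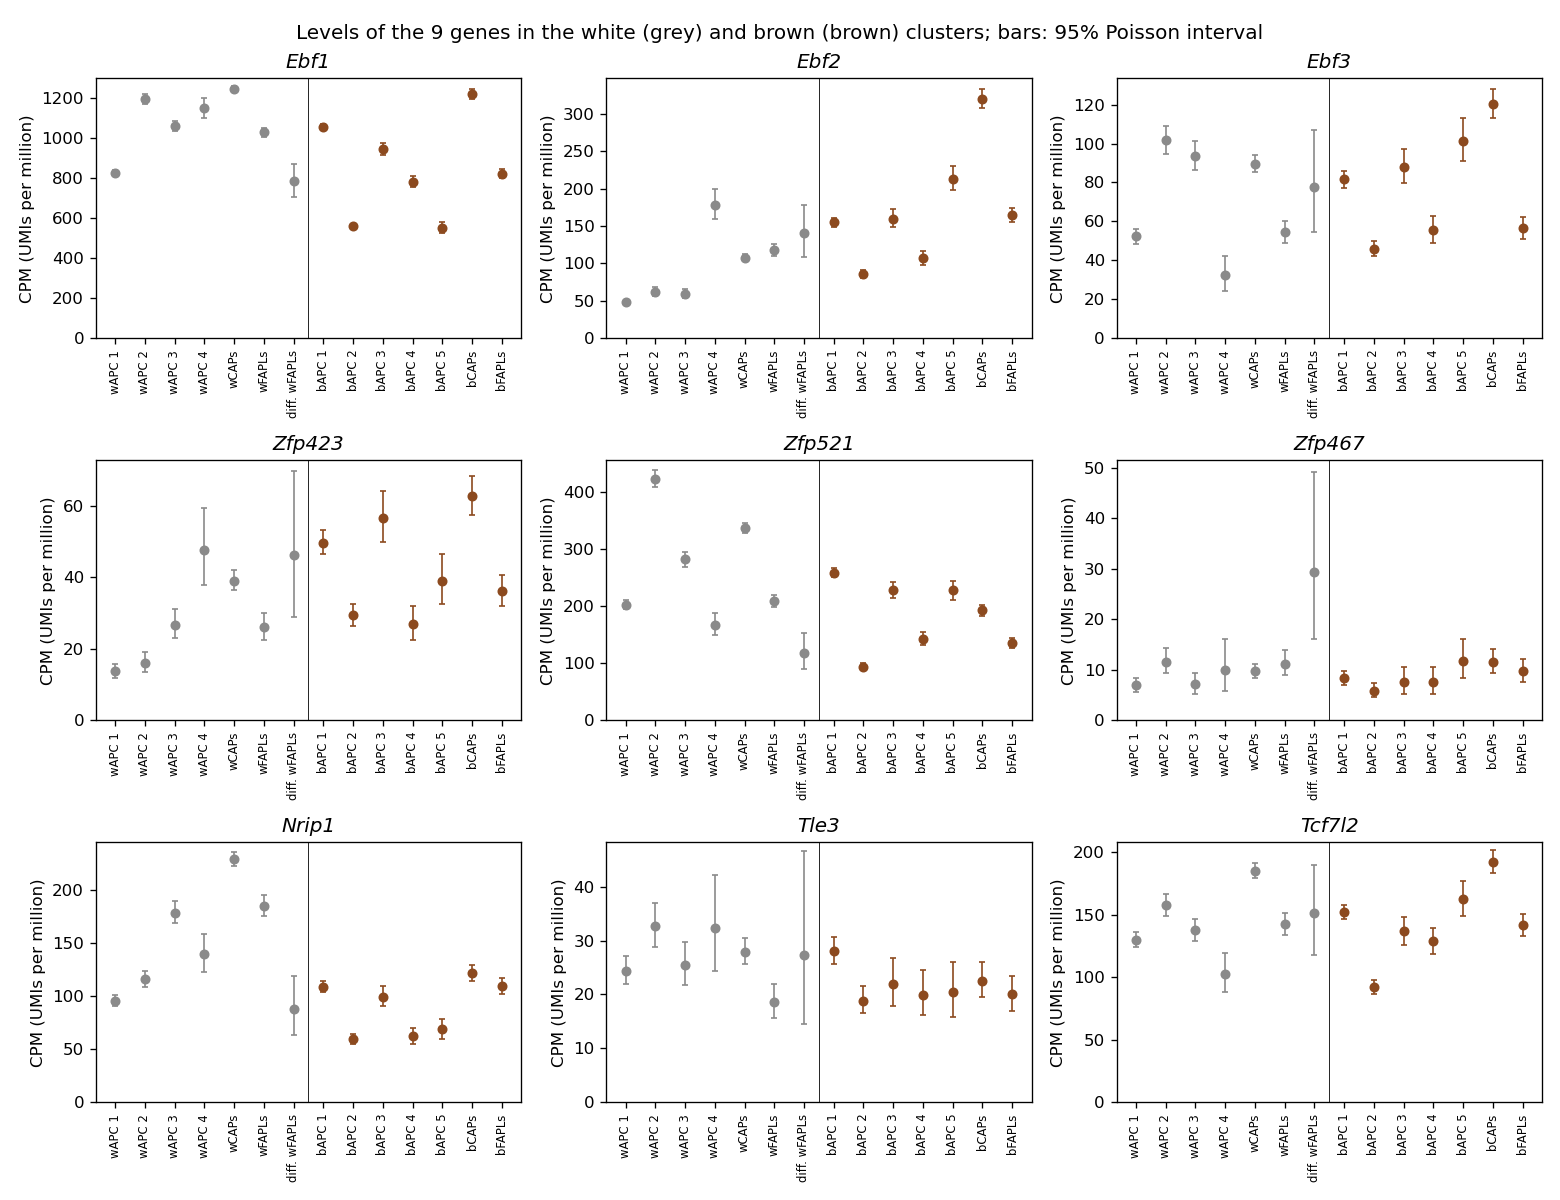
CPM (vertical axis, from 0) of each gene in the 7 white (grey) and 7 brown (brown) clusters (horizontal axis); points are CPM from summed UMIs and bars 95% Poisson intervals. Ebf2 and Zfp423 peak in wAPC 4 and bCAPs, and bAPC 2 is at or near the bottom for most genes.

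How like the members' patterns were was described by Pearson's r of log2(CPM + 1) over the 13 clusters of at least 50 cells, among 4455 genes with 50 CPM or more in 1 of them; the clusters of a depot share a library. Zfp423 entered this comparison through its levels in bCAPs and bAPC 3, while Tle3 and Zfp467 stayed under 50 CPM and could not be named in it. Among the genes that entered, Zfp423 had the pattern most like that of Ebf2, with r of 0.876, followed by Snhg18 (0.876) and Lix1l (0.865). For Zfp423, Unc5c came first (0.901) and Ebf2 next. Ebf1 was nearest Cdk5rap2 (0.947), Frs2 and Zkscan3, Ebf3 nearest Marcks (0.915), Boc and Phactr2, and Zfp521 nearest Zfhx4 (0.952) and Mtmr3. Nrip1 was nearest Plxna2 (0.930), Crtc3 and Clock, Tle3 nearest Fgfr1 (0.930), Dock11 and Asph, and Tcf7l2 nearest Senp7 (0.894), Tnrc18 and Klhl9. Zfp467 was nearest Nfkb1 (0.878), Smarca2 and Specc1l, at levels where counting error is large. Within a depot, Ebf2 and Ebf3 ran apart in WAT (r of -0.57 over 6 clusters) and together in BAT (r of 0.90 over 7 clusters), while Ebf2 and Zfp423 had positive values in both (0.87 and 0.77). In BAT the value of Ebf2 with Tcf7l2 (0.94) and with Zfp467 (0.90) was higher still, and in WAT the values were -0.29 and 0.57.

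Committed cells were set against fibro-adipogenic-like cells inside each depot, the contrast of fate that the study draws. Most members were higher in the committed cluster of both depots, by less than 2-fold except for Ebf3 in BAT. Ebf3, Zfp423, Zfp521, Ebf1 and Tcf7l2 were higher in wCAPs than in wFAPLs and in bCAPs than in bFAPLs. Nrip1 was higher in wCAPs, while its brown ratio lay near 0 with a counting interval just above it. Ebf2 was higher in bCAPs but not in wCAPs, and Tle3 was higher in wCAPs. The 2-fold call fell on 3.85% of 9199 tested genes in WAT and on 0 of 9 members, and on 3.87% of 9148 in BAT and on 1 of 9 members, Ebf3. Intervals above 0 were found for 7 of 9 members in each depot, against 20.5% of genes in WAT and 20.7% in BAT, and intervals below 0 for 1 of 9 in WAT (Ebf2), against 20.5%, and for 0 of 9 in BAT, against 15.6%. The members' median log2 ratio was 0.38 in WAT, beside 0.01 over all tested genes, and 0.51 in BAT, beside 0.04.

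Ebf1 stood at 1245 CPM in wCAPs and 1028 CPM in wFAPLs, a log2 ratio of 0.28 (0.24 to 0.31), and at 1218 and 822 CPM in the brown pair, a log2 ratio of 0.57 (0.52 to 0.61). Ebf2 stood at 108 and 118 CPM in WAT, with a log2 ratio of -0.13 (-0.24 to -0.01), and at 321 and 165 CPM in BAT, with a log2 ratio of 0.96 (0.87 to 1.06). The sign for Ebf2 thus differed between the depots, but the white value lay close to 0 after thinning, at -0.02, and Ebf2 varied among cells beyond counting error, which its interval leaves out. Ebf3 stood at 89.7 and 54.4 CPM in WAT (0.72, 0.56 to 0.88) and at 121 and 56.4 CPM in BAT (1.10, 0.93 to 1.26), the largest ratio of a member in either depot. After thinning, the brown Ebf3 ratio was 0.98, under the limit, and with labels carried over to all precursors it was 1.29.

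Zfp423 was higher in CAPs in both depots, with log2 ratios of 0.59 (0.36 to 0.83) in WAT and 0.79 (0.58 to 1.01) in BAT, from 25.9 to 39.1 CPM and from 36.2 to 62.7 CPM. Zfp521, although known as an inhibitor, was higher in CAPs as well, with log2 ratios of 0.69 (0.61 to 0.77) and 0.51 (0.39 to 0.62). The Zfp423 share of the pair's UMIs accordingly stayed close, at 10.4% (9.71 to 11.1) in wCAPs and 11.0% (9.59 to 12.6) in wFAPLs, and at 24.6% (22.8 to 26.5) in bCAPs and 21.1% (18.9 to 23.4) in bFAPLs. Zfp467 had log2 ratios of -0.21 (-0.60 to 0.19) and 0.24 (-0.21 to 0.70), intervals that hold 0.

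Nrip1 was higher in wCAPs than in wFAPLs, at 229 and 185 CPM (log2 ratio 0.31, 0.22 to 0.40), and nearer equal in BAT, at 121 and 109 CPM (0.15, 0.01 to 0.28). After thinning the brown Nrip1 ratio was 0.10. Nrip1 also varied among cells beyond counting error, with a variance of 2.07 times its mean in bCAPs and 2.25 times in bFAPLs, which the interval leaves out. Tle3 had log2 ratios of 0.59 (0.32 to 0.88) in WAT and 0.17 (-0.15 to 0.49) in BAT, the latter with 0 inside. Of the Tle genes' UMIs, Tle3 took 8.59% (7.91 to 9.31) in wCAPs and 4.79% (4.03 to 5.65) in wFAPLs. Over all WAT precursors it took 8.04% (7.78 to 8.31). Against the other labelled white cells, Tle3 was lower in wFAPLs, with a log2 ratio of -0.57 (-0.84 to -0.31). For wCAPs that ratio was 0.13 (-0.03 to 0.28), an interval that holds 0. The other 4 tested Tle genes had a median log2 ratio of wCAPs over wFAPLs of -0.12. Tcf7l2 was higher in CAPs by 0.38 (0.28 to 0.48) in WAT and 0.44 (0.33 to 0.55) in BAT on the log2 scale.

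For scale, Pparg had log2 ratios of CAPs over FAPLs of 3.29 (2.94 to 3.66) in WAT and 2.45 (2.18 to 2.73) in BAT, and Prdm16, a cofactor of the brown programme, 1.65 (1.18 to 2.15) and 1.01 (0.53 to 1.50). Klf4, an early adipogenic factor, had -1.22 (-1.41 to -1.04) in BAT. These were the core adipogenic factors past 2-fold, 2 of 14 tested in WAT and 3 of 14 in BAT. The adipocyte genes Fabp4, a fatty acid binding protein, and Lpl, the lipase that frees fatty acids from lipoproteins, passed 2-fold in both depots, with ratios of 1.21 and 1.65 in WAT and 1.72 and 1.09 in BAT. Since the study named the CAP clusters by their high Pparg and Fabp4, the ratios of these genes follow from the naming and are given as a description. Of the Ebf and zinc finger relatives, Tle genes, Tcf/Lef genes, nuclear receptor cofactors and BMP SMAD genes, 0 passed 2-fold in either depot.

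Markers of other cells moved with this contrast. The 5 mural markers had a median log2 ratio of CAPs over FAPLs of -3.23 in WAT and -1.89 in BAT, with 4 of 5 past 2-fold in each depot, and their sum was 2373 CPM in wCAPs, 4377 in wFAPLs, 4233 in bCAPs and 5677 in bFAPLs. The myeloid marker Lyz2 (-3.01), the mesothelial marker Krt19 (-1.53) and the precursor marker Dcn (-1.03) were also past 2-fold towards wFAPLs. Their part in the member ratios was not tested.

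**Figure D4:**
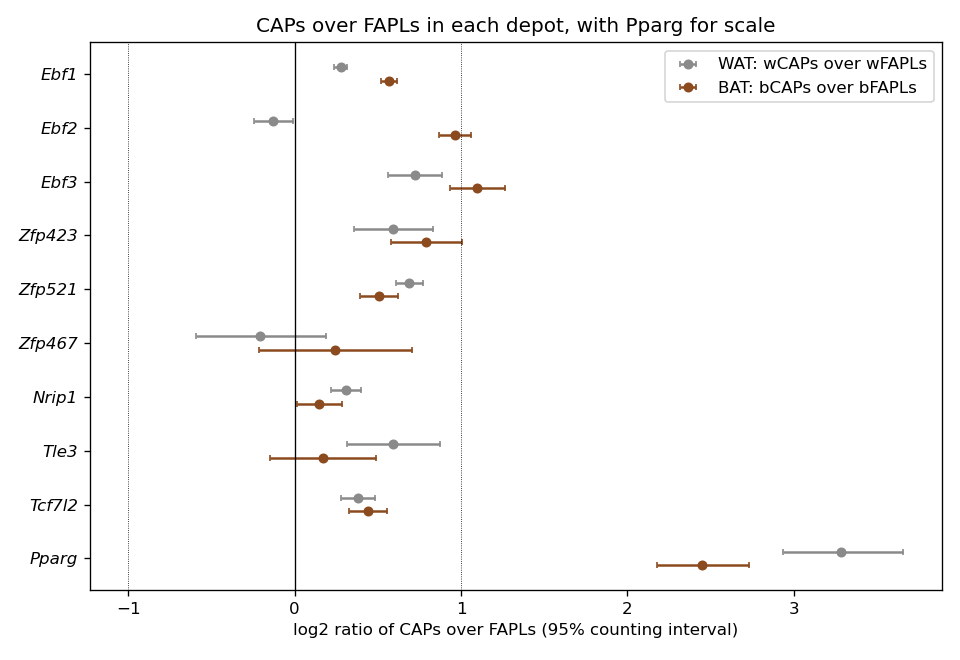
Log2 ratio of CAPs over FAPLs (horizontal axis) for the 9 genes and for Pparg, in WAT (grey) and BAT (brown); points are ratios of summed UMIs, bars 95% counting intervals, and dotted lines mark 2-fold. Ebf2 sits just left of 0 in WAT and near the 2-fold line in BAT, and Pparg lies beyond the members in both depots.

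The depots were then compared inside like clusters. Between wCAPs and bCAPs, Ebf2 was the 1 of 9 members past 2-fold, against 4.32% of 9235 tested genes, at 108 CPM (103 to 113) and 321 CPM (309 to 333) with a log2 ratio of -1.57 (-1.66 to -1.49). Nrip1 and Zfp521 were higher in wCAPs, with log2 ratios of 0.92 (0.82 to 1.02) and 0.81 (0.73 to 0.89), and Zfp423 and Ebf3 were higher in bCAPs, with -0.68 (-0.84 to -0.52) and -0.43 (-0.54 to -0.31). Ebf1, at 1245 and 1218 CPM, and Tcf7l2, at 185 and 192 CPM, differed by 0.03 (-0.00222 to 0.07) and -0.05 (-0.14 to 0.03), and the Ebf1 sign changed with the cells used. Intervals above 0 were found for 3 of 9 members, against 29.1% of genes, and below 0 for 3 of 9, against 26.9%. Pparg was level between the committed clusters, at -0.00388 (-0.13 to 0.12), while Ebf2 was not. Of the listed genes, Dlk1, a precursor marker, was past 2-fold towards wCAPs (1.44), and Fabp4 (-1.81) and the mural marker Myh11 (-1.09) towards bCAPs.

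Between wFAPLs and bFAPLs 0 of 9 members passed 2-fold, against 1.69% of 9136 genes. Intervals above 0 were found for 3 of 9, against 21.7% of genes, and below 0 for 2 of 9, against 14.5%. The directions were as in CAPs for 4 members, with Ebf2 at -0.48 (-0.61 to -0.35), Zfp423 at -0.48 (-0.76 to -0.21), Nrip1 at 0.76 (0.63 to 0.88) and Zfp521 at 0.63 (0.51 to 0.74). Ebf2 stood at 118 CPM (110.0 to 126) and 165 CPM (155 to 174), a smaller gap than in CAPs, where the interval of the ratio does not meet that in FAPLs. Ebf3, Tle3 and Tcf7l2 had intervals that hold 0, with log2 ratios of -0.05 (-0.25 to 0.15), -0.11 (-0.46 to 0.23) and 0.01 (-0.12 to 0.13), and their signs changed under other settings. Listed genes past 2-fold here were Fabp4 (-1.30), Lyz2 (1.62), Myh11 (1.08) and Rgs5 (-1.44). Point values were also compared over the 42 pairs of a white and a brown cluster of 50 or more cells. The white one was higher in 37 for Nrip1, 34 for Ebf1, 32 for Zfp521 and 32 for Tle3. It was higher in 22 for Zfp467, 21 for Tcf7l2, 18 for Ebf3, 9 for Ebf2 and 8 for Zfp423. The pairs reuse the same clusters of 1 library per depot and take no account of overlapping intervals. The share over all genes was not computed for these pairs.

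Inside the clusters, cells with an Ebf2 UMI were set beside cells without one after thinning to 10000 UMIs. Of the 36 ratios of Pparg and the other members, 12 had intervals above 0 and 2 below. With cells split by a Pparg UMI instead, 5 of the 36 member ratios had intervals above 0 and 0 below. The share over all genes was not computed for either split, so these counts are not read as a result about the members. Pparg was higher in the cells with Ebf2 in the 4 clusters, with log2 ratios of 0.60 (0.37 to 0.83) in wCAPs, 1.65 (0.37 to 3.12) in wFAPLs, 0.97 (0.34 to 1.66) in bCAPs and 2.04 (0.71 to 3.74) in bFAPLs. The FAPL values rest on 22 against 7 and 44 against 5 Pparg UMIs. Across clusters, Ebf2 and Pparg levels did not run together, with Pearson's r of -0.005 over 6 WAT clusters and -0.04 over 7 BAT clusters. Split the other way, by a Pparg UMI, the Ebf2 log2 ratios were -0.03 (-0.24 to 0.18) in wCAPs and 0.48 (-0.11 to 1.02) in wFAPLs, intervals that hold 0, and 0.27 (0.08 to 0.45) in bCAPs and 0.52 (0.16 to 0.87) in bFAPLs. Zfp423 was higher in the bCAPs with an Ebf2 UMI (257 cells) than in those without (39 cells), at 0.700 and 0.179 UMIs per cell, a log2 ratio of 1.96 (0.89 to 3.30) on 180 and 7 UMIs. In wCAPs, wFAPLs and bFAPLs the Zfp423 intervals held 0, with log2 ratios of 0.35 (-0.02 to 0.72), -0.04 (-0.77 to 0.68) and 0.49 (-0.18 to 1.21). The 2 intervals below 0 were in wFAPLs, for Ebf1 at -0.14 (-0.25 to -0.03) and Nrip1 at -0.49 (-0.75 to -0.22). Ebf1 was instead higher with an Ebf2 UMI in wCAPs (0.26), bCAPs (0.35) and bFAPLs (0.19), and Nrip1 in bFAPLs (0.48). The intervals here cover counting error only and are too narrow where a gene varied more among cells. For Ebf1 the variance was 3.58 times the mean in wFAPLs, 8.97 times in bCAPs and 5.74 times in bFAPLs. Ebf2 and Nrip1 also varied beyond counting error, so the signs of the smaller ratios are not settled. The cells compared share a library and a cluster, and unequal stages within a cluster were not tested.

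Levels at 10000 UMIs were uneven among cells of a cluster. Ebf1 had a variance of 5.23 times its mean in wCAPs and 8.97 times in bCAPs, where genes of like mean had medians of 1.77 and 1.83. In bCAPs a tenth-percentile cell held 4 Ebf1 UMIs, the median cell 10 and a ninetieth-percentile cell 22. Ebf2 had ratios of variance to mean of 2.36, 2.33, 2.63 and 2.75 in wCAPs, wFAPLs, bCAPs and bFAPLs, where those of genes of like mean had medians of 1.12 to 1.29. Ebf1 and Ebf2 thus varied more from cell to cell than most genes at their level, but not as the only members. In bCAPs, Zfp423 exceeded 95.9% of genes of like mean, Nrip1 92.4% and Ebf3 82.8%, beside 88.5% for Ebf2. Tle3 had 1.06 in wCAPs and 1.16 in wFAPLs, against medians of 1.06 and 1.05. At 10000 UMIs the median cell held UMIs of 5 of the 9 genes in wCAPs, bCAPs and bFAPLs and of 4 in wFAPLs.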

How the data were processed

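The authors deposited gene by cell UMI counts for 1 white and 1 brown 10x Genomics 3′ v3.1 library, made with Cell Ranger 7.0.1 per the labels on mm10 (GRCm38); the deposited counts are not normalized. Libraries summed to 144451047 (WAT) and 205551320 (BAT) UMIs. The filter followed the study's methods and kept cells between 3900 and 7700 genes (of those found in at least 3 cells), between 6000 and 60000 UMIs and between 1.7 and 5% mitochondrial UMIs. Glial, myeloid and myogenic cells were removed after clustering (Seurat 5.3.0 in R 4.3.3, 2000 variable genes, 10 components, resolution 0.5). No doublet caller was run. Cluster names were those in the study's source data, read for the first 1999 cells listed per depot. In a check, 1827 (91.4%) white and 1770 (88.5%) brown labelled cells held out in turn were given their own label by their 15 nearest neighbours.

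UMIs were summed per group and given as CPM with exact Poisson intervals; shares have Clopper-Pearson intervals, and ratios conditional binomial intervals (Python 3.11.15, numpy 2.4.6, scipy 1.17.1), at 95% and for counting error only. The interval code was tested on simulated Poisson and binomial counts, which hold no further variation among cells. Genes with at least 10 CPM in one group were tested for the 2-fold limit. With 1 library per depot no test between depots was run. Named were the 9 members, listed genes past 2-fold in a main contrast, and the 3 genes most like each member across clusters, of which 1 is not reported here. The members and lists were chosen with earlier results of these data known. The comparison of brown cells with and without a Hoxc9 UMI and of myeloid with precursor levels was added after the data were seen. Promoters and gene positions came from RefSeq (GRCm38.p6) and GENCODE M21. RefSeq promoters were not matched for Ebf2 and Zfp521.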

Additional observations from a re-analysis of the deposited data

Results flagged for a closer look

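The log2 ratio of CAPs over FAPLs for Ebf2 was -0.13 in WAT and 0.96 in BAT, opposite signs with counting intervals that both leave out 0. With cells thinned to 10000 UMIs the WAT value was -0.02, and the counting interval does not cover the variation of Ebf2 among cells. With 1 library per depot, the difference between the depots was not tested.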

How the results depend on the processing

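No paired analysis was possible because each depot gave 1 library, and for the same reason no library could be left out. Between WAT and BAT precursors the 0 members past 2-fold became 1 (Ebf2) with cells thinned to 10000 UMIs, with the mean of per-cell CPM, with ratios centred on the median gene and without the cells against the depot, and 4 at a 1.5-fold limit. At 1.5-fold, 4 members passed between wCAPs and wFAPLs, 3 between bCAPs and bFAPLs, 4 between wCAPs and bCAPs and 2 between wFAPLs and bFAPLs. Between bCAPs and bFAPLs, 0 passed after thinning and 2 (Ebf2 and Ebf3) with labels carried over to all precursors. Of 279 member ratios under these alternatives, 245 stayed inside the interval of the value given, of which the 36 cluster ratios in cells of 10000 or more UMIs were identical to it, since no labelled cell was shallower, and 34 did not, 0 of those past 2-fold reversed, and the 8 that changed sign were Ebf1, Ebf3, Tle3 or Tcf7l2 ratios near 0; the largest move was 0.33 (Zfp467, wCAPs over bCAPs). The cause of these moves was not tested. Depth limits Zfp467, Tle3 and Zfp423 most, and the intervals leave out variation between animals and cultures.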
